A study of Mus musculus with 11 samples.

Results

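Oxidative phosphorylation (OXPHOS) was followed in pancreatic islets through the genes for the subunits of its 5 complexes, which the cell carries in separate genomes. Members were the protein-coding genes whose symbols name a structural subunit of complex I (*Ndufa*, *Ndufb*, *Ndufc*, *Ndufs*, *Ndufv*), complex II (*Sdha* to *Sdhd*), complex III (*Uqcr*, *Cyc1*), complex IV (*Cox4i* to *Cox8*) or ATP synthase, complex V (*Atp5*), with the assembly factors named *Ndufaf* left out, together with the protein genes of the mitochondrial genome. The rule used names and no measured value, and it found 97 members among the 19329 gene IDs with values, of which 84 were encoded in the nucleus and 13 in the mitochondrion. The symbol rule put *Ndufa4* with complex I, although its protein is also described as a subunit of complex IV.

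Complexes I to IV pass electrons from NADH and succinate to oxygen. Complexes I, III and IV also pump protons across the inner mitochondrial membrane, and complex V uses the returning protons to make ATP. Most subunits are made from nuclear mRNAs, one gene at a time, whereas the mitochondrial subunits are cut from long polycistronic transcripts read from both strands of a small circular genome present in many copies per cell. In the beta cell, ATP made in this way closes the potassium channel that holds the membrane at rest, and so couples glucose to insulin release. Complex II is the only one of the 5 with no mitochondrial-encoded subunit.

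The libraries came from whole islets of 14-week-old male C57BL/6N mice fed chow, cultured after isolation and given no treatment. Wild-type islets gave 6 libraries, and islets homozygous for PDX1P33T, a proline-to-threonine point mutation placed by CRISPR-Cas9 in the pancreatic transcription factor PDX1, gave 5. The methods call the controls littermates and also say that the animals came from crosses of homozygous parents. Per the study's figure legends each replicate was collected from several mice, so p-values measure the spread between these libraries. Whole islets also hold several cell types, and in such samples fewer cells of a type and less RNA per cell cannot be told apart. The values were FPKM (fragments scaled by gene length and by a divisor set for each library), which divide by length and allow levels to be compared between genes. Reads on the listed genes, recovered from the steps between low FPKM values, came to 22864359 to 34889270 per PDX1P33T library and 17416516 to 29210981 per wild-type library.

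Wild-type values needed a repair before any use. As deposited, a wild-type value usually stands on a row that belongs to some other gene. The study lists reads of the genes it detected, and a part of that list was available here. Of 1705 genes in that part, only 13 gave whole wild-type reads on their own row. A wild-type value was therefore used only where its row was identified, either by the listed reads of the gene or by a gene length and a level within 4-fold that pointed to a single row. This placed 4765 gene IDs (24.7% of all), and 403 of the 403 pairs that could be checked both ways were right. Among the members, 47 of 97 were placed, 36 nuclear (16 by reads, 20 by length and level) and 11 mitochondrial (8 by reads, 3 by length and level). *mt-Nd3* and *mt-Atp8* were not placed. PDX1P33T values were on their own rows and were available for all 97.

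The tissue label was met by the markers. *Ins2*, an insulin gene of the beta cell, averaged 152890 FPKM in PDX1P33T, *Gcg* of the alpha cell 10618 FPKM, *Sst* of the delta cell 5720.1 FPKM and *Ppy* of the PP cell 6218 FPKM. The 11 acinar markers together reached 36.4 ± 47.5 FPKM (SD, n = 5), the 6 stromal markers 6.91 ± 2.10, the 6 immune markers 57.1 ± 5.46, the 5 duct markers 134.6 ± 7.73 and the 6 endothelial markers 180.0 ± 40.8 FPKM. The duct sum was nearly all *Spp1* (73.5 FPKM) and *Krt7* (58.9), with *Krt19* at 1.87, *Sox9* at 0.319 and *Cftr* at 0.0202 FPKM.

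In PDX1P33T islets the nuclear members summed to 5706 ± 1212 FPKM and the mitochondrial members to 10226 ± 3200 FPKM (SD, n = 5). Nuclear complex I, with 38 genes, summed to 2041 ± 501 FPKM. Complex IV reached 1666 ± 305 FPKM with 15 genes, complex V 1125 ± 211 FPKM with 18, complex III 635 ± 156 FPKM with 9 and complex II 239 ± 42.9 FPKM with 4. By the median gene the nuclear complexes lay closer together, at 39.7 FPKM for complex I, 45.3 for complex II, 64.5 for complex III, 67.3 for complex IV and 39.1 for complex V.

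Within a complex, single subunits differed more than the complexes did by their medians. In complex I the leading genes were *Ndufa1* (198 ± 71.5 FPKM), *Ndufa2* (190 ± 30.9 FPKM) and *Ndufb11* (181 ± 30.5 FPKM), all accessory subunits, and the lowest was *Ndufa4l2*, a paralog of *Ndufa4* known from hypoxic cells, at 1.37 ± 0.635 FPKM. The 4 genes of complex II ran from *Sdhd*, a membrane anchor, at 112 ± 36.3 FPKM through *Sdha* (50.1 ± 2.28 FPKM), the flavoprotein that oxidises succinate, and *Sdhc* (40.6 ± 5.39 FPKM) to the iron-sulfur subunit *Sdhb* at 36.7 ± 1.57 FPKM. Complex III was led by the small subunits *Uqcr10* (130 ± 32.7 FPKM), *Uqcr11* (125 ± 36.7 FPKM) and *Uqcrh* (90.3 ± 29.2 FPKM), with the core protein *Uqcrc1* lowest at 26.01 ± 0.493 FPKM. Complex IV held the highest nuclear member of all, *Cox8a* (349.6 ± 35.5 FPKM), followed by *Cox6a1* (281 ± 38.3 FPKM) and *Cox7a2l* (274 ± 36.5 FPKM), the last of which is known for joining complexes III and IV into supercomplexes. In complex V the alpha and beta subunits of the catalytic head, *Atp5a1* (196 ± 14.6 FPKM) and *Atp5b* (138 ± 10.9 FPKM), led with *Atp5e* (113 ± 38.8 FPKM), and *Atp5s*, a coupling factor, was lowest at 4.05 ± 0.885 FPKM.

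**Figure D1:**
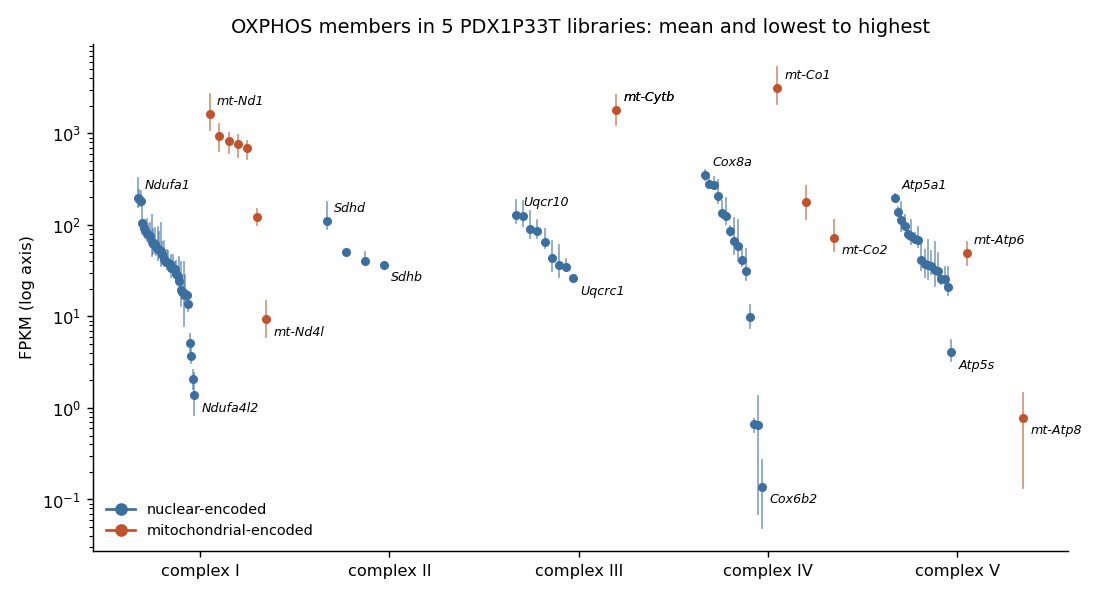
Mean FPKM (points) and lowest to highest library (lines) of the 97 members in 5 PDX1P33T libraries, on a log axis, by complex and genome. Nuclear members run from 0.136 FPKM (*Cox6b2*) to 349.6 FPKM (*Cox8a*), and mitochondrial members from 0.777 FPKM (*mt-Atp8*) to 3151 FPKM (*mt-Co1*).

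These levels depend on the length each gene was given. For 37 of the 84 nuclear members the length in the files was over 1.5 times that of the longest coding transcript in the GRCm38 annotation used here, and for 23 it was over 2 times. *Atp5l* was counted over 6443 bases against 544 in its longest coding transcript, and *Ndufb7* over 4522 against 623, so that their FPKM (21.2 and 18.7) were divided by far more than the mRNA. All 13 mitochondrial lengths equalled the annotated ones.

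Mitochondrial genes fell into separate ranges of level. *mt-Co1*, the catalytic subunit of complex IV, averaged 3151 ± 1298 FPKM, *mt-Cytb*, the complex III subunit that carries both quinone sites, 1814 ± 567 FPKM, and *mt-Nd1*, at the quinone site of complex I, 1624 ± 646 FPKM. Together these 3 genes held 64.4% of the summed mitochondrial FPKM. *mt-Nd2* (936 ± 261 FPKM), *mt-Nd6* (820.1 ± 182 FPKM), *mt-Nd4* (762 ± 178 FPKM) and *mt-Nd5* (688 ± 145 FPKM), all membrane subunits of complex I, came next, *mt-Nd6* being the only one of the 13 on the other strand. *mt-Co3* (178 ± 67.5 FPKM), *mt-Nd3* (121 ± 22.2 FPKM), *mt-Co2* (72.0 ± 24.6 FPKM), *mt-Atp6* (49.9 ± 11.8 FPKM) and *mt-Nd4l* (9.31 ± 3.33 FPKM) lay lower, and *mt-Atp8* had 0.777 ± 0.554 FPKM.

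The 5 genes of that lower range shared a feature of sequence. Each is repeated on chromosome 1 in an unprocessed pseudogene over at least 98.99% of its bases, at 100% identity for *mt-Co2* (*Gm28661*), *mt-Co3* (*Gm28437*), *mt-Atp6* (*Gm10925*) and *mt-Nd4l* (*Gm10222*) and 99.71% for *mt-Nd3* (*Gm28438*). Reads from such a pair cannot be told apart over the identical bases, so these 5 levels are uncertain. The copies were themselves listed, at 126 FPKM for *Gm28437*, 73.6 for *Gm10925*, 71.9 for *Gm28438*, 59.1 for *Gm28661* and 11.9 for *Gm10222*. With the copy added, *mt-Co3* reached 304 ± 97.6 FPKM, *mt-Nd3* 193 ± 40.7, *mt-Co2* 131 ± 48.0, *mt-Atp6* 124 ± 30.2 and *mt-Nd4l* 21.2 ± 5.70 FPKM. All lay below the 688 FPKM of *mt-Nd5*. Any read counted at neither place would be missing from these sums, so they do not settle the levels of these 5 genes. The 7 genes of the upper range had no copy of this kind over their whole length. *mt-Co1* is matched over all its bases by *Gm13340* on chromosome 2 (GRCm38, chr2:22588103-22589647), but at 97.61% identity, and that copy had 0.253 FPKM. It is also matched at 99.79% over 31.26% of its length by *Gm29216* on chromosome 1 (50.7 FPKM). *mt-Nd4* is matched at 100% over 63.57% of its length by *Gm28439* (17.3 FPKM). All copies were sought among annotated transcripts only. None was found there for *mt-Atp8*, but its neighbours *mt-Co2* and *mt-Atp6* have copies close together on chromosome 1. An unannotated copy of *mt-Atp8* would have been missed, so its level is uncertain too.

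The stretch of 80 bases in which *mt-Co1* and *Gm13340* differ most is shown here with the differing bases in capitals, because it is such bases that allow a read to be assigned. The *mt-Co1* bases lie inside its coding sequence, on the plus strand at MT:5782-5861 (GRCm38).
mt-Co1: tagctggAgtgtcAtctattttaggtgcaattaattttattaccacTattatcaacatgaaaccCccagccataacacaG
Gm13340: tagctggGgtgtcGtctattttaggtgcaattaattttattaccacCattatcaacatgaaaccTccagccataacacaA

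Neighbouring mitochondrial genes also share bases with each other. *mt-Atp8*, the lowest of them, is 204 bases long (MT:7766-7969, plus strand, GRCm38), and its last 43 bases, in capitals below, are also the start of *mt-Atp6*. They made up 21.1% of *mt-Atp8* and 6.31% of *mt-Atp6*.
mt-Atp8: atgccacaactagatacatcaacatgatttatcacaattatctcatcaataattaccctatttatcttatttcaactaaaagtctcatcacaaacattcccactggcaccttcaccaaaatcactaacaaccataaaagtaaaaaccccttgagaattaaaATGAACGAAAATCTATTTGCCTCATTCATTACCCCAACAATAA
The end of *mt-Nd4l* (its last 40 bases, MT:10134-10173) likewise runs into *mt-Nd4*, by the 7 bases in capitals.
mt-Nd4l: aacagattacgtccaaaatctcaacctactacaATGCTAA
*mt-Nd5* and *mt-Nd6* overlap by 14 bases on opposite strands, and whether the counting used strand is not given in the sources used here. If it did not, RNA of the opposite strand anywhere along *mt-Nd6* would be counted for it. The level and fold change of *mt-Nd6* are therefore uncertain. *mt-Atp8* had 8, 6, 3, 3 and 1 reads in PDX1P33T replicates 1 to 5, too few for any comparison.

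The genomes were then set against each other in each PDX1P33T library. Summed over all members, the mitochondrial to nuclear FPKM ratio was 1.93, 1.91, 1.42, 2.13 and 1.48 in replicates 1 to 5. Replicates 3 and 5 were the low ones. The size of the ratio depends on the lengths used, which were over 1.5 times the longest coding transcript for 37 of the 84 nuclear members. For the 13 mitochondrial members they were the annotated ones. By complex the median ratio was 2.27 in complex I (2.01 to 3.04), 2.90 in complex III (2.29 to 3.49) and 2.00 in complex IV (1.55 to 2.57). In complex V it was 0.0437 (0.0365 to 0.0570), where both mitochondrial genes were among those with an overlap. Nearly all of that mitochondrial level was *mt-Atp6*, at 49.9 FPKM alone and 124 FPKM with its identical copy added, so this ratio is uncertain. Ratios of complexes I, III and V were highest in replicate 4, and that of complex IV in replicate 2. Mitochondrial members took 0.931% to 1.70% of the reads of a PDX1P33T library and nuclear members 0.824% to 1.08%.

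One PDX1P33T library stood apart for both genomes. Nuclear members summed to 5507 FPKM in replicate 1, 7843 in replicate 2, 5030.4 in replicate 3, 5164 in replicate 4 and 4988 in replicate 5, and mitochondrial members to 10653, 14976, 7122, 10983 and 7397 FPKM. Replicate 2 was thus the highest for both, and it held the highest value of 75 of the 84 nuclear members and of 9 of the 13 mitochondrial members. Over the nuclear members it ranged from 0.683 times (*Ndufa4l2*) to 3.08 times (*Ndufa12*) the mean of the other 4 libraries, with a median of 1.52 times. At least 1.5 times was reached by 44 of them and at least 2 times by 13. *Ndufb6*, an accessory subunit of the complex I membrane arm, had 38.7, 105, 39.5, 35.4 and 40.6 FPKM in replicates 1 to 5, and *Cox4i1*, a nuclear subunit of complex IV, had 185, 309, 176, 188 and 174 FPKM. In both, replicate 2 was alone and the other 4 lay close together. The 9 nuclear members that were highest elsewhere were *Ndufa10*, *Ndufa13*, *Ndufa4l2*, *Ndufs7*, *Cox6a2*, *Cox6b2* and *Atp5d* (replicate 1) and *Sdha* and *Uqcrc1* (replicate 3).

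Without replicate 2 the nuclear members were steady and the mitochondrial ones less so. Across the other 4 libraries, 61 of the 84 nuclear members had a coefficient of variation under 10%, with a median of 6.33%, against 0 of the 13 mitochondrial members, with a median of 23.2%. Summed nuclear FPKM was then 5172 ± 235 and summed mitochondrial FPKM 9039 ± 2062 (SD, n = 4).

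Other genes moved with replicate 2 as well. The median log2 ratio of replicate 2 to the geometric mean of the other 4 was 0.61 over nuclear members, 0.59 over mitochondrial members, 0.62 over 76 cytosolic ribosomal protein genes and 0.41 over 77 mitochondrial ribosomal protein genes, against 0.02 over the 17600 gene IDs with a value in every PDX1P33T library. Across all genes it depended on length, being 0.48 up to 1 kb, 0.22 from 1 to 2 kb, 0.04 from 2 to 4 kb and -0.10 above 4 kb. Nuclear members in the same length ranges had 0.67, 0.63, 0.60 and 0.47. The 11 acinar markers were all highest in replicate 2 and summed to 121 FPKM there against 9.05 to 20.9 FPKM in the others, with *Ctrb1* the most abundant (12.0 FPKM on average) and none at 0. Beta cell markers summed to 1.30 times their mean in the other 4, a sum made mostly of *Ins1*, *Ins2* and *Iapp*, while 6 of the 10 were highest in replicate 2 and *Mafa* had 0.743, *Nkx6-1* 0.764 and *Ucn3* 0.842 times. Endothelial markers summed to 0.627 times. The part of acinar RNA or of length in the replicate 2 values was not tested.

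The scaling of replicate 2 also set it apart. Its reads on the listed genes came to 1.09 times the divisor behind its FPKM, against 0.928 to 0.998 times in the other 4 libraries. With every library rescaled to its reads, a choice made after seeing the data, the nuclear sum of replicate 2 was 1.32 times instead of 1.52 times the mean of the others, and the mitochondrial sum 1.44 times instead of 1.66 times. Median-of-ratios factors, a scaling applied here after seeing the data too, went the other way (0.954 in replicate 2, 0.992 to 0.998 in the others) and gave 1.58 times and 1.73 times. With reads the median over nuclear members was 1.32 times, and 66 of 84 nuclear and 6 of 13 mitochondrial members were highest in replicate 2.

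**Figure D2:**
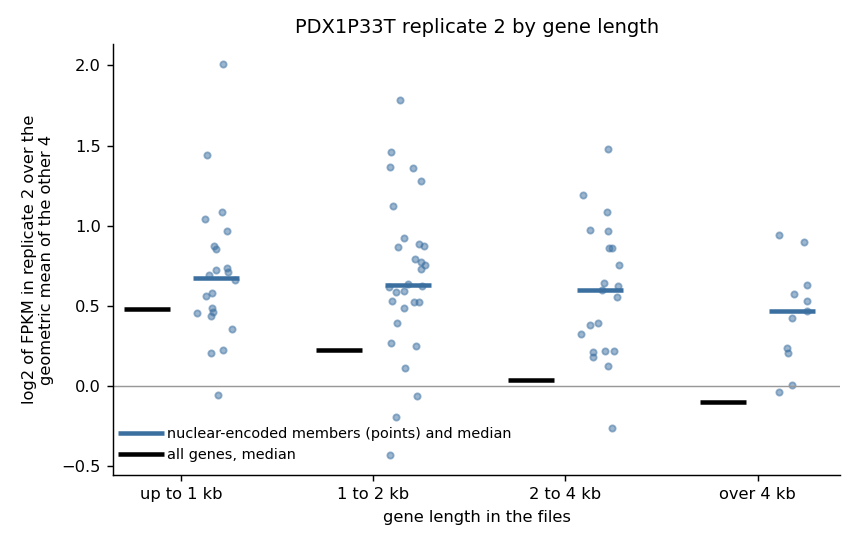
Log2 of the FPKM in PDX1P33T replicate 2 over the geometric mean of the other 4 PDX1P33T libraries, by gene length, for nuclear members (points, with their median) and for all genes with a value in every PDX1P33T library (black bar, median). The median of nuclear members lies above that of all genes in each length range, at 0.67 against 0.48 up to 1 kb and 0.47 against -0.10 above 4 kb.

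Several subunits exist as paired isoforms of different tissues, and the islets held mainly the ubiquitous one. *Cox4i1* took 99.6% to 99.8% of the *Cox4i1* and *Cox4i2* level, *Cox4i2*, the lung-type isoform, having 0.673 ± 0.0744 FPKM. *Cox6b1* took 99.79% to 99.96% beside the testis-type *Cox6b2* (0.136 ± 0.0811 FPKM). The muscle-type *Cox7a1* had 0.644 ± 0.497 FPKM, beside *Cox7a2* at 124 ± 39.7 FPKM and *Cox7a2l*. *Ndufa4* took 95.6% to 99.2% of its pair with *Ndufa4l2*. The 3 genes of the identical c-ring subunit of ATP synthase shared their level as 15.2% (*Atp5g1*), 43.8% (*Atp5g2*) and 41.0% (*Atp5g3*) by median. *Cox7b* (58.8 ± 31.3 FPKM) and *Cox8a* were each the only member of their sets analysed here.

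*Cox6a2* departed from this pattern. It encodes the heart and muscle isoform of subunit 6a, and it had 97.1, 82.4, 76.6, 93.2 and 78.5 FPKM in PDX1P33T replicates 1 to 5, which was 19.5% to 26.1% of its pair with *Cox6a1*. The other muscle-, lung- and testis-type isoforms of complex IV (*Cox7a1*, *Cox4i2*, *Cox6b2*) each took under 1% of their sets. Muscle markers were low in the same libraries, where *Acta1* was the most abundant at 2.56 FPKM, *Des* had 1.13, *Actc1* 0.0816 and *Tnnt2* 0.0417 FPKM.

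The wild-type libraries differed widely in their mitochondrial genes. The 11 placed mitochondrial genes summed to 6523, 27790.4, 55108, 19668, 18512 and 14477 FPKM in wild-type replicates 1 to 6, so that replicate 3 had 8.45 times the level of replicate 1. Replicate 1 was the lowest and replicate 3 the highest for all 11. Endothelial markers had the same extremes. The 4 that were placed (*Pecam1*, *Kdr*, *Cdh5*, *Flt1*) were all lowest in replicate 1 and highest in replicate 3, and summed to 31.3, 48.4, 163, 61.2, 64.5 and 69.7 FPKM in wild-type replicates 1 to 6. The 2 placed muscle markers were likewise lowest in replicate 1 and highest in replicate 3, with a sum 5.36 times as high there. Nearly all of that sum was *Des* (0.823 and 4.41 FPKM), *Tnnt2* having 0.0387 and 0.207 FPKM. Of the 3 placed delta cell markers, *Sst* ran from 4309 FPKM in replicate 1 to 10589 FPKM in replicate 3, *Pcsk1n* was lowest in replicate 4 and highest in replicate 3, and *Ghsr* was highest in replicate 1. The 2 placed PP cell markers summed to 9998 FPKM in replicate 1 and 24082 FPKM in replicate 3. The 4 immune markers were also lowest in replicate 1, but summed to 57.85 FPKM in replicate 2 and 55.86 in replicate 3. Stromal and Schwann cell markers summed highest in replicate 2 (27.1 and 4.44 FPKM, against 5.72 and 2.38 in replicate 3). Alpha cell markers summed lowest in replicate 2 (4707 FPKM). The 5 beta cell markers summed in replicate 3 to 0.839 times their level in replicate 1. The part of these cell types in the mitochondrial values was not tested. Single genes spanned from 5.40-fold (*mt-Atp6*) to 12.0-fold (*mt-Nd5*) between these libraries. *mt-Co1* had 1785, 7882, 16004, 5808, 5807 and 4282 FPKM. In PDX1P33T the same gene had 2961, 5313, 2120.4, 3195 and 2167 FPKM, and the span of the 11 genes was 1.58-fold to 2.51-fold.

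**Figure D3:**
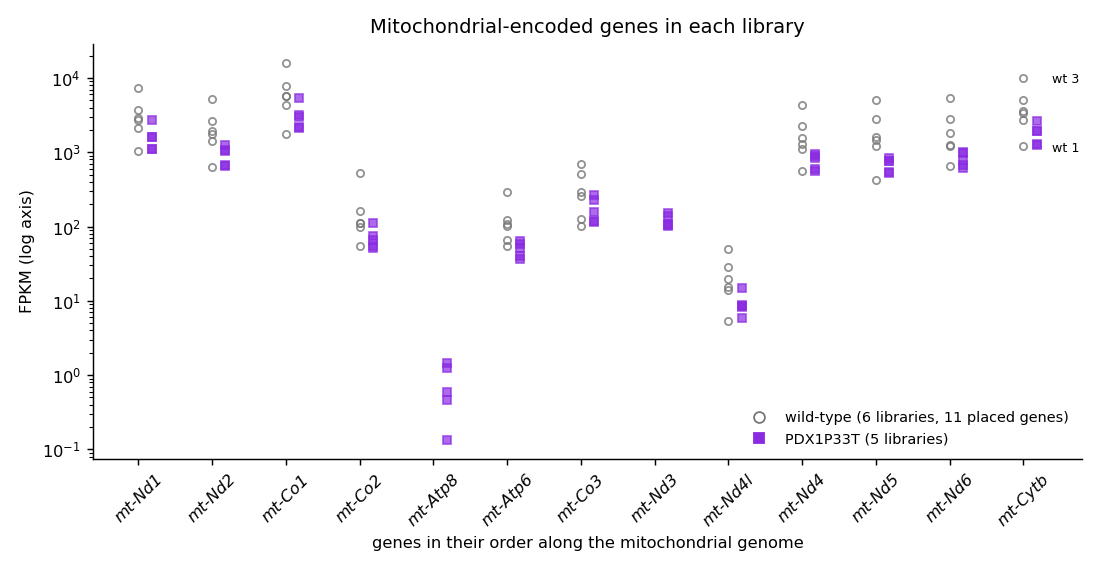
FPKM on a log axis of the 13 mitochondrial genes in the order in which they lie along the genome, in 6 wild-type libraries (open circles, 11 placed genes) and 5 PDX1P33T libraries (squares). Wild-type replicate 1 (wt 1) is at the bottom and wild-type replicate 3 (wt 3) at the top of each wild-type column, and *mt-Co2*, *mt-Atp6*, *mt-Co3*, *mt-Nd3* and *mt-Nd4l*, which have near-identical nuclear copies, lie below the rest together with *mt-Atp8*.

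The placed nuclear members did not follow as a sum. Their sums in wild-type replicates 1 to 6 were 2700.0, 2771, 2708, 2563, 2491 and 2617 FPKM, a span of 1.11-fold, and the span of single genes had a median of 1.43-fold. The mitochondrial to nuclear ratio of placed members was therefore 2.42, 10.03, 20.4, 7.67, 7.43 and 5.53 in wild-type and 3.56, 3.30, 2.63, 4.00 and 2.75 in PDX1P33T. Wild-type replicate 1 lay below every PDX1P33T library and the other 5 wild-type libraries lay above all of them, so the groups overlapped through that library. The mitochondrial share of reads moved alike, from 0.911% to 7.53% of the reads on wild-type rows. Among the 16 nuclear members placed by reads the order was turned round, with replicate 1 highest for 14 and replicate 3 lowest for 11. Among the 20 placed by length and level, replicate 1 was highest for 8 and replicate 3 for 7. Of all 36 placed nuclear members, 4 were lowest in replicate 1. These were *Cox6a2*, *Uqcr10*, *Cox4i1* and *Atp5e*, and each was highest in replicate 3, as the mitochondrial genes were.

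**Figure D4:**
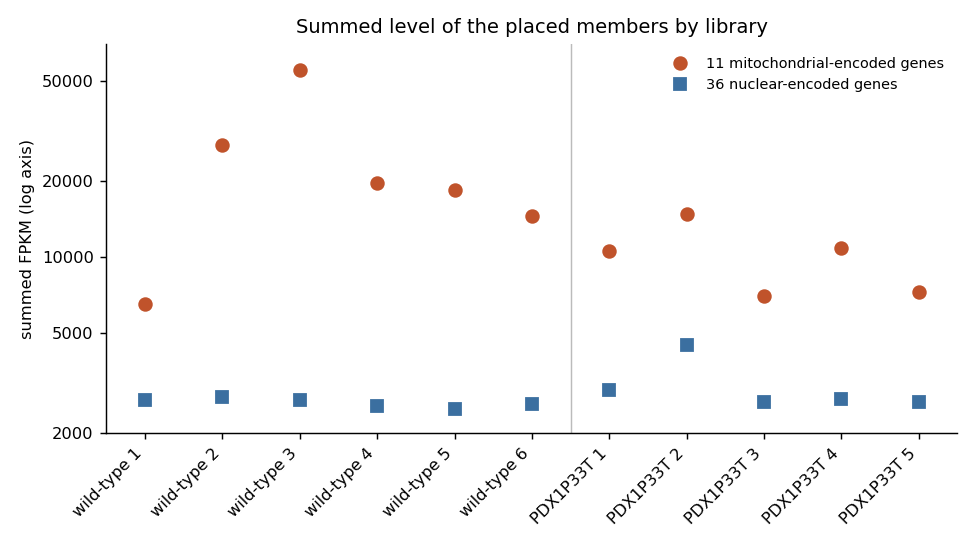
Summed FPKM on a log axis of the 11 mitochondrial and 36 nuclear members that could be placed, in each of 6 wild-type and 5 PDX1P33T libraries. Mitochondrial sums run from 6523 to 55108 in wild-type and from 7021 to 14824 in PDX1P33T, while nuclear sums stay between 2491 and 2771 except in PDX1P33T replicates 1 (2953) and 2 (4492).

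Between genotypes no member was called. The question was whether the homozygous mutation changed the level of OXPHOS transcripts, and it was tested with limma on log2(FPKM + 0.1), where a call needed a fold change of 1.5 or more with a p of 0.05 or less after Benjamini-Hochberg adjustment over the 19329 gene IDs. Of the 47 members compared, 0 were called, against 4 of the 4726 genes fitted (0.0846%), of which 2 were higher (0.0423%) and 2 lower (0.0423%) in PDX1P33T. The smallest adjusted p among members by limma was 0.499, and at an unadjusted p under 0.05 there were 21 of 47 members, against 34.0% of all genes fitted. This last share is set by how genes were placed. Genes placed by reads come from the part of the study's gene list available here, which held 1749 genes. Of them 87.1% had an unadjusted p under 0.05, so that part does not stand for all genes. Among genes placed by length and level, for which a level within 4-fold was also required, the share was 4.88%. All 21 such members had been placed by reads, so nothing is read from their number.

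Direction divided the members by genome. All 11 mitochondrial genes had a log2 fold change below 0, from -0.66 (*mt-Co3*) to -1.26 (*mt-Nd5*) with a median of -1.03. Of the 36 nuclear members 35 had one above 0, with a median of 0.28. The 20 nuclear members placed by length and level, which did not come from that part of the list, were all above 0 with a median of 0.17. Of all genes so placed, 50.3% were above 0, with a median of 0.04. None of the 20 had an unadjusted p under 0.05. The 16 placed by reads had a median of 0.49, beside -0.32 over all genes placed by reads, of which 41.3% were above 0. By complex the nuclear medians were 0.48 (complex I, 14 genes), 0.19 (complex II, *Sdha* alone), 0.26 (complex III, 6), 0.16 (complex IV, 7) and 0.26 (complex V, 8). Without PDX1P33T replicate 2 they were 0.24, 0.20, 0.125, 0.08 and 0.12. Placed by reads were 9 of the 14 genes of complex I, 0 of 1 in complex II, 2 of 6 in complex III, 3 of 7 in complex IV and 2 of 8 in complex V.

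A single library carried much of the nuclear difference. Without PDX1P33T replicate 2 the median log2 fold change of the nuclear members placed by length and level was 0.07 instead of 0.17. That of those placed by reads was 0.25 instead of 0.49, and 30 of 36 remained above 0. These were 15 of the 20 placed by length and level and 15 of the 16 placed by reads. The mitochondrial median was -1.14 without that library. It was -1.32 when wild-type replicate 1 was left out and -0.73 when replicate 3 was, with 11 of 11 below 0 each time.

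**Figure D5:**
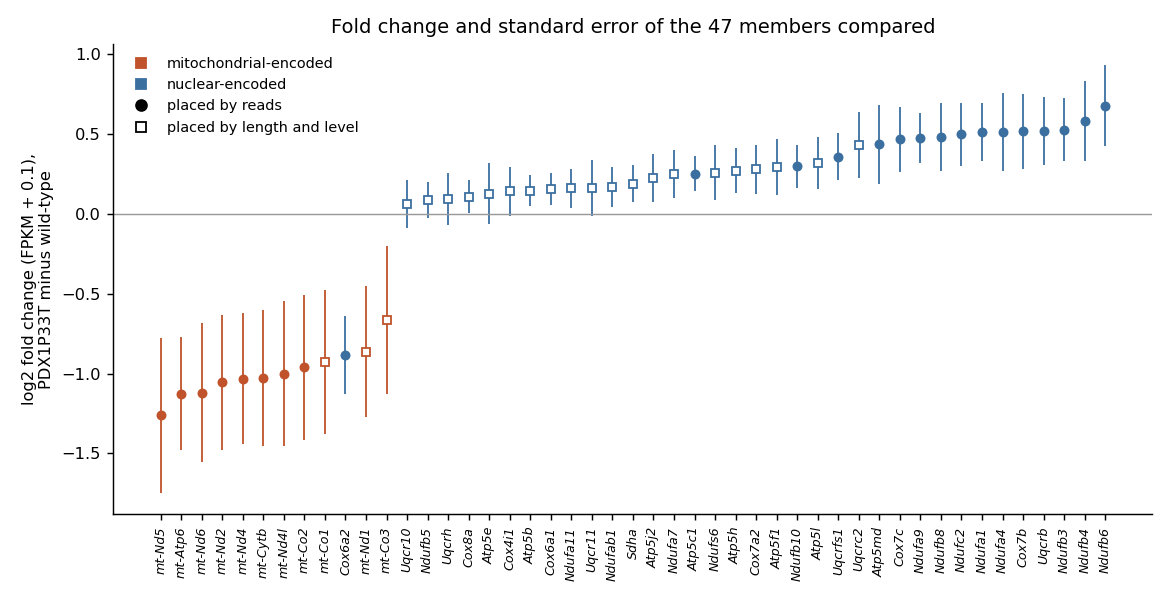
Log2 fold change of FPKM + 0.1 (PDX1P33T minus wild-type) with its standard error for the 47 members compared, coloured by genome, with filled points for members placed by reads and open squares for those placed by length and level. Mitochondrial genes and *Cox6a2* lie between -0.66 and -1.26, and the other 35 nuclear members between 0.06 and 0.68.

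*Cox6a2* had the smallest unadjusted limma p of all members (0.00317), while other nuclear members had a smaller exact permutation p. In wild-type it ran from 75.9 FPKM (replicate 1) through a median of 160.1 to 236 FPKM (replicate 3), against 76.6 to 97.1 FPKM in PDX1P33T. The lowest wild-type library lay below every PDX1P33T library and the other 5 lay above all of them, which is the arrangement of the mitochondrial to nuclear ratio. The 2 placed muscle markers (*Des*, *Tnnt2*), at far lower levels, were also lowest in replicate 1 and highest in replicate 3. They summed to 0.862, 3.52, 4.62, 1.49, 1.91 and 1.43 FPKM in wild-type replicates 1 to 6, nearly all of it *Des*. Their part in the *Cox6a2* values was not tested. The log2 fold change of *Cox6a2* was -0.88 ± 0.24 (SE), with a limma adjusted p of 0.499 and an exact two-sided permutation p of 0.0173 before adjustment. Without wild-type replicate 1 it was -1.09 ± 0.15, with a limma adjusted p of 0.0264, where 8 of the 4726 genes fitted (0.169%) and 0.418% of those placed by reads were called. It was the only member called in any fit tried, and the adjusted p of the other named members also lay lower in that fit, at 0.15 for *mt-Nd5* and 0.166 for *Ndufa9*. *Cox6a1*, its ubiquitous counterpart, ran from 229 to 263 FPKM in wild-type and from 251 to 340.5 FPKM in PDX1P33T, with a log2 fold change of 0.16 ± 0.10.

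*Ndufa1* and *Atp5c1* were the only members whose groups did not overlap, where 4.85% of all genes fitted and 12.7% of those placed by reads did not. *Ndufa1*, an accessory subunit encoded on the X chromosome, had 105 to 155 FPKM in wild-type (median 137) and 184, 324, 157, 157 and 167 FPKM in PDX1P33T. The highest wild-type value, 155.2, was just under the lowest PDX1P33T value, 156.7. Its log2 fold change was 0.51 ± 0.18, with a limma adjusted p of 0.499. *Atp5c1*, the gamma subunit that turns inside the ATP synthase head, had 72.2 to 84.3 FPKM in wild-type (median 82.7) and 89.8, 128, 87.7, 88.1 and 90.6 FPKM in PDX1P33T, with a log2 fold change of 0.25 ± 0.11 and a limma adjusted p of 0.540. For both the exact permutation p was 0.0022 before adjustment, the smallest that 6 against 5 libraries can give, and both were placed by reads. Without PDX1P33T replicate 2 the log2 fold change was 0.32 for *Ndufa1* and 0.15 for *Atp5c1*.

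The other nuclear members with the smallest p were complex I and III subunits at positive values. *Ndufb6* had 24.6 to 39.98 FPKM in wild-type (median 28.7) and a log2 fold change of 0.68 ± 0.25. Its value in PDX1P33T replicate 2 was 2.71 times the mean of the other 4 PDX1P33T libraries, and without that replicate the change was 0.39. *Ndufa9*, which holds a nucleotide cofactor in complex I, had 15.4 to 26.7 FPKM in wild-type (median 20.8) and 23.9, 40.1, 27.8, 25.8 and 26.6 FPKM in PDX1P33T, a log2 fold change of 0.47 ± 0.16. *Ndufb3*, *Ndufc2*, *Ndufb4*, *Uqcrb* and the Rieske iron-sulfur protein *Uqcrfs1* had log2 fold changes of 0.53, 0.50, 0.58, 0.52 and 0.36. Without PDX1P33T replicate 2 these were 0.31, 0.29, 0.29, 0.35 and 0.235, and that of *Ndufa9* was 0.35. Wild-type replicate 1 was the highest wild-type library in each of these 7 genes and lay within the PDX1P33T range.

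*mt-Atp6*, the proton channel of ATP synthase, had the smallest p of the mitochondrial genes. It ran from 54.2 FPKM in wild-type replicate 1 through a median of 106 to 293 FPKM in replicate 3, against 51.1, 64.3, 36.6, 57.9 and 39.6 FPKM in PDX1P33T. The log2 fold change was -1.13 ± 0.35, with a limma adjusted p of 0.499 and an exact permutation p of 0.0195 before adjustment. *mt-Nd5* (-1.26 ± 0.49), *mt-Nd6* (-1.12 ± 0.43), *mt-Nd2* (-1.05 ± 0.42), *mt-Nd4* (-1.03 ± 0.41), *mt-Cytb* (-1.03 ± 0.43) and *mt-Co2* (-0.96 ± 0.45) gave like values. Of the 3 genes placed by length and level, *mt-Co1* had -0.93 ± 0.45, *mt-Nd1* -0.86 ± 0.41 and *mt-Co3* -0.66 ± 0.46. For 6 of the 11, all of them placed by reads, every wild-type library but replicate 1 lay above every PDX1P33T library. The same arrangement, looked for after seeing the values, held for 10.5% of all genes fitted, 26.1% of those placed by reads and 2.03% of those placed by length and level. *mt-Co3* differed from the rest in its order of libraries, having 515 FPKM in wild-type replicate 5 beside a wild-type median of 273, and its highest PDX1P33T value in replicate 1 (267 FPKM).

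Genes that build and serve the complexes were compared from fixed lists, and none of them was called. Every gene of these lists with an unadjusted p under 0.05 had been placed by reads, where 87.1% of all genes had one, so nothing is read from these counts. Of all genes fitted 47.1% had a log2 fold change above 0. Among 46 assembly factors with values, 11 could be compared, of which 10 had a log2 fold change above 0 (median 0.23, or 0.075 without PDX1P33T replicate 2) and 2 an unadjusted p under 0.05, *Cox14* (0.36) and *Nubpl* (0.43), which serve complexes IV and I. Of the mitochondrial ribosomal proteins 15 of 77 could be compared, with 11 above 0 and a median of 0.10, or 0.02 without that library. *Mrps33* (0.46) had an unadjusted p under 0.05 above 0, and *Mrpl49* (-0.48) and *Mrps11* (-0.30) below 0. Of the carriers and pores 5 of 9 could be compared, with a median of 0.16, or 0.11 without it, and the ADP/ATP carriers *Slc25a5* (0.35) and *Slc25a4* (0.34) had an unadjusted p under 0.05. Mitochondrial DNA and RNA handling genes had a median of 0.01 over 6 genes, or -0.05 without PDX1P33T replicate 2, in which *Tefm* (0.61), the elongation factor of mitochondrial transcription, and the RNA-degrading enzyme *Pnpt1* (0.43) had an unadjusted p under 0.05. Of the nuclear regulators, *Nrf1* (-0.07), *Gabpa* (0.17) and *Esrrg* (0.37) could be compared.

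Among markers of other cell types none was called between the genotypes. The 4 endothelial markers compared had log2 fold changes of -0.58 to -0.73 (median -0.63). Medians were -0.58 for the 4 immune markers, -0.58 for the 4 stromal, -1.01 for the 2 Schwann cell and -0.56 for the 2 muscle markers. They were -0.45 for the 2 PP cell, -0.25 for the 3 delta cell and -0.08 for the 2 alpha cell markers, and 0.17 for the 5 beta cell markers. *Krt7*, the 1 duct marker compared, had a log2 fold change of 0.14. The smallest limma adjusted p of these lists was 0.457, in the Schwann cell list, and no acinar marker could be compared. The part of these cell types in the OXPHOS values was not tested.

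Promoter windows of 300 bases, from 250 before to 50 after the annotated start (RefSeq, GRCm38.p6), were available for 68 of the 84 nuclear members. These were searched on both strands for motifs of factors known to drive nuclear OXPHOS genes. The NRF1 motif, taken as GCGCA, any base, then GCGC, was present in 25.0% of the members, beside 10.2% of 11600 protein-coding genes of the table and 15.2% of the 2625 with at least 10 FPKM. The stricter form with T as that base, whose matches are among these, was in 7.35% against 2.10% and 2.78%. The YY1 motif AAGATGGC was in 14.7% of members against 4.72% and 6.36%, with 7 of its 10 members in complex I and 3 in complex V. Mitochondrial ribosomal protein genes, which form no OXPHOS complex, had 17.6% for YY1 and 19.1% for the wider NRF1 motif, and cytosolic ribosomal protein genes 10.5% and 8.77%. The ETS motif CCGGAAGT, bound by GABPA, was in 7.35% against 8.09% and 10.4%. It was in 17.65% of mitochondrial and 19.3% of cytosolic ribosomal protein genes. A match is a string of letters and not a tested site. Windows of 60 bases before the start are shown, with the motif in capitals, for the ETS motif of *Uqcr11* (chr10:80406854-80406913, minus strand) and *Atp5h* (chr11:115419925-115419984, minus, where it lies reversed) and the YY1 motif of *Atp5j* (chr16:84835031-84835090, minus), all GRCm38.
Uqcr11: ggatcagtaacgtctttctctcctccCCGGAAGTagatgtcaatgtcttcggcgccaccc
Atp5h: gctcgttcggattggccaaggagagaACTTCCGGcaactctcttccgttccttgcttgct
Atp5j: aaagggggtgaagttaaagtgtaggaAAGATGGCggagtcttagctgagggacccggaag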

How the data were processed

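RNA-seq of whole islets was compared between 6 wild-type and 5 PDX1P33T libraries. The authors deposited FPKM per gene, a table of the whole series and 1 file per library with equal values. Per the submitters' processing notes, fastp 0.23.1, HISAT2 2.0.5, featureCounts 1.5.0-p3 and DESeq2 1.20.0 were used with GRCm39. The divisor behind FPKM was recovered from the steps between low values. It was not a whole number and in PDX1P33T replicate 2 was below the reads listed, so FPKM were scaled by more than depth. Reads recovered in this way served for depth, shares and placement only, no count test was run, and alternatives are given in the closing section. Here wild-type rows were placed by reads listed for genes or by length and level, the latter only with at least 100 reads over the libraries of each genotype. Limma 3.58.1 (R 4.3.3, trend and robust) was fitted to log2(FPKM + 0.1) of 4726 genes, with gene IDs not placed counted as not called in the adjustment. The fit was tested on simulated data. Single genes were also compared by exact permutation of 462 splits. Copies were sought among annotated transcripts with blastn 2.17.0. Coordinates are GRCm38, gene symbols from its annotation.

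Members and lists were chosen with earlier results of these data known. Named genes were all mitochondrial ones, the 3 highest and the lowest nuclear member per complex, those under 1 FPKM, the isoform sets, members called or not overlapping, and the 8 smallest p in each direction. *Ndufb7*, *Atp5l*, *Ndufa12*, the promoter examples and the 9 members not highest in PDX1P33T replicate 2 were named after their values were seen.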

Additional observations from a re-analysis of the deposited data

Results flagged for a closer look

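Of 48 groups of libraries examined, 15 held a library whose gap to its nearest neighbour took an unusually large part of the range (Dixon's 95% critical value), where chance flags about 1 in 20. In 13 of the 15 that library was PDX1P33T replicate 2. Its nuclear members summed to 7842.86 FPKM, against at most 5506.93 in the other 4 libraries, and each complex stood apart, with 2926.77 FPKM in complex I, 314.171 in complex II, 906.69 in complex III, 2195.88 in complex IV and 1499.34 in complex V. Single members far above the rest there were *Ndufa1* (324.028 FPKM), *Ndufa9* (40.0519), *Ndufb6* (104.545), *Sdhd* (175.911), *Uqcr10* (186.229), *Cox4i1* (308.503) and *Atp5c1* (127.805). These groups share a library and are not independent of each other.

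In wild-type, *mt-Atp6* stood apart in replicate 3 at 292.82 FPKM, where the others ran from 54.1891 to 124.05, and *Cox8a* in replicate 2 at 379.91 FPKM, where the others ran from 299.286 to 326.693.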

How the results depend on the processing

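No member was called under the other pseudocounts, filter, scalings, placement limits or limma settings tried. Leaving out 1 library gave 0 to 1 calls, the 1 being *Cox6a2* without wild-type replicate 1, where 0.169% of all genes fitted were called. The count at an unadjusted p under 0.05, 21 with all libraries, ran from 8 when wild-type replicate 2 was left out to 29 when replicate 1 was, and was 10 on leaving out replicate 3 and 13 on leaving out replicate 5 of that group. A replicate block by library number gave 12 and one by title number 14, with 0 called in both. Deviations of same-numbered libraries had r from -0.552 to 0.072, and only library number 6 had its same-numbered partner as the closest. Such correlations can be set by a few outlying libraries, so they do not show whether same-numbered libraries share an origin. The median mitochondrial to nuclear ratio in PDX1P33T, 1.91, was 5.44 as a ratio of geometric means and 3.30 over placed members only, changes made by the quantity itself. It ran from 1.70 to 1.92 with 1 library left out and was 1.98 with the nuclear copies added, a choice made after seeing the data, as were all medians of fold changes under alternatives. For 17 named members, 373 of 374 values kept direction and call, and 0 reversed. Few reads limit what can be said of *mt-Atp8* and the isoforms under 1 FPKM.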

Other observations

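Regulators of the nuclear and mitochondrial genes were low beside the subunits in PDX1P33T. *Yy1* had 11.4 ± 0.575 FPKM (SD, n = 5), *Tfam*, which packages mitochondrial DNA, 9.48 ± 2.04, the mitochondrial RNA polymerase *Polrmt* 2.95 ± 0.267 and the coactivator *Ppargc1a* 0.101 ± 0.0452 FPKM. *Tfam* was highest in replicate 2 (12.97 FPKM) and *Polrmt* lowest there (2.61 FPKM). Among assembly factors *Uqcc2*, which serves complex III, was the most abundant at 228 ± 74.7 FPKM.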
